A study of Homo sapiens with 6 samples.

Results

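The genes described here are 9 members of the p53 axis and its sirtuin partners, followed in human nuclei of teratomas grown from H1 embryonic stem cells with and without an altered LNCPRESS1 gene. They were MDM2, CDKN1A, SESN1, SPATA18, ZMAT3, GDF15, FAS, SIRT1 and SIRT6, chosen by name because LNCPRESS1, a long non-coding RNA of pluripotent cells, is described as repressed by p53 and as binding SIRT6. All 9 were found by symbol among 38606 human features, of which 35627 had a unique molecular identifier (UMI, 1 counted RNA molecule) and 26284 were tested. The groups were an LNCPRESS1 knockout (KO), a line called ΔATG (DATG), an edit that is named but not described in the labels, and the wild type (WT), with 2 libraries each. Every group came from H1, an established human embryonic stem cell line, mixed with matrigel and placed in the flank of NSG mice. NSG mice lack mature T, B and NK cells but keep cells of the monocyte and neutrophil lines. The frozen tumours were turned into nuclei and read with the 10x Genomics 3′ chemistry. Neither the number of edited clones nor the origin of the 2 libraries of a group is stated, so p-values measure only the spread between these libraries, which may be technical.

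p53 is a transcription factor that is kept scarce by MDM2, a ubiquitin ligase that marks it for destruction and is itself switched on by p53, so that the pair forms a feedback loop. When DNA damage or other stress frees p53, it turns on genes that halt the cell cycle (CDKN1A, the CDK inhibitor p21), damp growth signalling (SESN1, a sestrin that restrains mTORC1), stabilise RNAs of the same programme (ZMAT3, an RNA-binding zinc finger protein), act in mitochondrial quality control (SPATA18, also called Mieap), signal to other tissues (GDF15, a secreted stress cytokine) or prime cells for death (FAS, a death receptor). SIRT1 and SIRT6 are NAD-dependent enzymes that remove acyl groups from proteins. SIRT1 deacetylates p53, and SIRT6 deacetylates histone H3 at chromatin.

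The letters of the p53 response element were searched near the starts of these genes, and the matches are shown because this element is what p53 binds. The search ran over 20 bases, the p53 consensus decamer in 2 copies without a spacer, with the central C and G of each copy fixed and at most 3 mismatches elsewhere. The consensus reads the same on both strands. RefSeq windows of 300 bases (GRCh38.p14, 250 before and 50 after a start) were matched for 9 of 9 members, in 18 windows. Such a match lay in windows of 4 of the 9 members, against 1.37% of 27305 genes and 1.12% of 35116 windows overall. The members were chosen as p53 genes, so this share is a description. Capitals mark the match.
MDM2 (chr12:68808883-68808982, + strand): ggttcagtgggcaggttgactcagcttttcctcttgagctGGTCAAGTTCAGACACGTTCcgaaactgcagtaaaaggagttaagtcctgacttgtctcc
FAS (chr10:88991269-88991368, + strand): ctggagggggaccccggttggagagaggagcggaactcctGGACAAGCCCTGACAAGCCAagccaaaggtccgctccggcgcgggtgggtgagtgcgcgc
SESN1 (chr6:109008989-109009077, - strand): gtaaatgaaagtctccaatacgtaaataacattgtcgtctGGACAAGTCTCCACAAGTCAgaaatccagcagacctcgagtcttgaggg
GDF15 (chr19:18386181-18386207, + strand): tgcacAGCCATGCCCGGGCAAGAACtc
The MDM2, FAS and SESN1 matches lie inside the annotated gene, ahead of a downstream start, and the FAS match also falls in an exon of other FAS transcripts (GENCODE 29). The MDM2 and FAS matches had 2 mismatches each, and 0.285% of all windows held a match with at most 2. They ended 74 and 102 bases before the start. The SESN1 match had 3 and ended 29 bases before the start, and the GDF15 match also had 3 and began 28 bases after it, across the 5′ UTR and the first coding bases. The best match had 4 mismatches in ZMAT3, 5 in CDKN1A, 8 in SPATA18, 8 in SIRT6 and 9 in SIRT1. A window without a match says only that these letters are not within it.

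The libraries held 35785812 to 47574535 UMIs over 6504 to 13489 barcodes. After filtering, 49204 human nuclei were used, 5254 to 10932 per library, with a median of 2438.5 to 3874 UMIs per nucleus. Libraries shared 7 to 33 cell barcodes per pair. DATG replicate 2 stood apart: it held 3649 barcodes with RNA of both species, against 513 to 1095 elsewhere, and the replicates correlated at 0.904 in DATG, against 0.979 in KO and 0.976 in WT. LNCPRESS1 had 2 and 0 UMIs in the KO libraries, 1 and 3 in the DATG libraries and 7 and 2 in the WT libraries, too few to check the labels. Although the labels give embryonic stem cells as the cell type, 423 nuclei formed the cluster with pluripotency markers (POU5F1, NANOG, TDGF1), which held 160 and 2 nuclei in KO, 0 and 153 in DATG and 54 and 54 in WT.

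None of the 9 members passed the test in any comparison over all human nuclei. The knockout was compared with WT first. Of the 9, 5 had both KO libraries below both WT libraries (MDM2, CDKN1A, GDF15, FAS and SPATA18), and none had both above. The same held for 22.6% of all 26284 genes tested in the lower direction and 23.2% in the higher direction. Levels below are CPM of human UMIs (each library's counts scaled to the same total) after trimmed mean scaling (TMM), and differences are log2 fold changes with their standard error (SE) from edgeR's quasi-likelihood test. The threshold was a Benjamini-Hochberg adjusted p under 0.05, which 0 genes, 0% of those tested, met in KO vs WT, against 1333 (5.07%) with an unadjusted p under 0.05. DESeq2 called 180 genes (0.732%) and edgeR on the 4 KO and WT libraries alone called 584 (2.27%), and neither list held a member. At an unadjusted p under 0.05, 0 members passed with 6 libraries, 3 passed in the 4-library fit (SPATA18, FAS and GDF15), as 16.5% of all genes did, and 1 passed in DESeq2 (SPATA18), as 4.65% of all genes did.

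**Figure D1:**
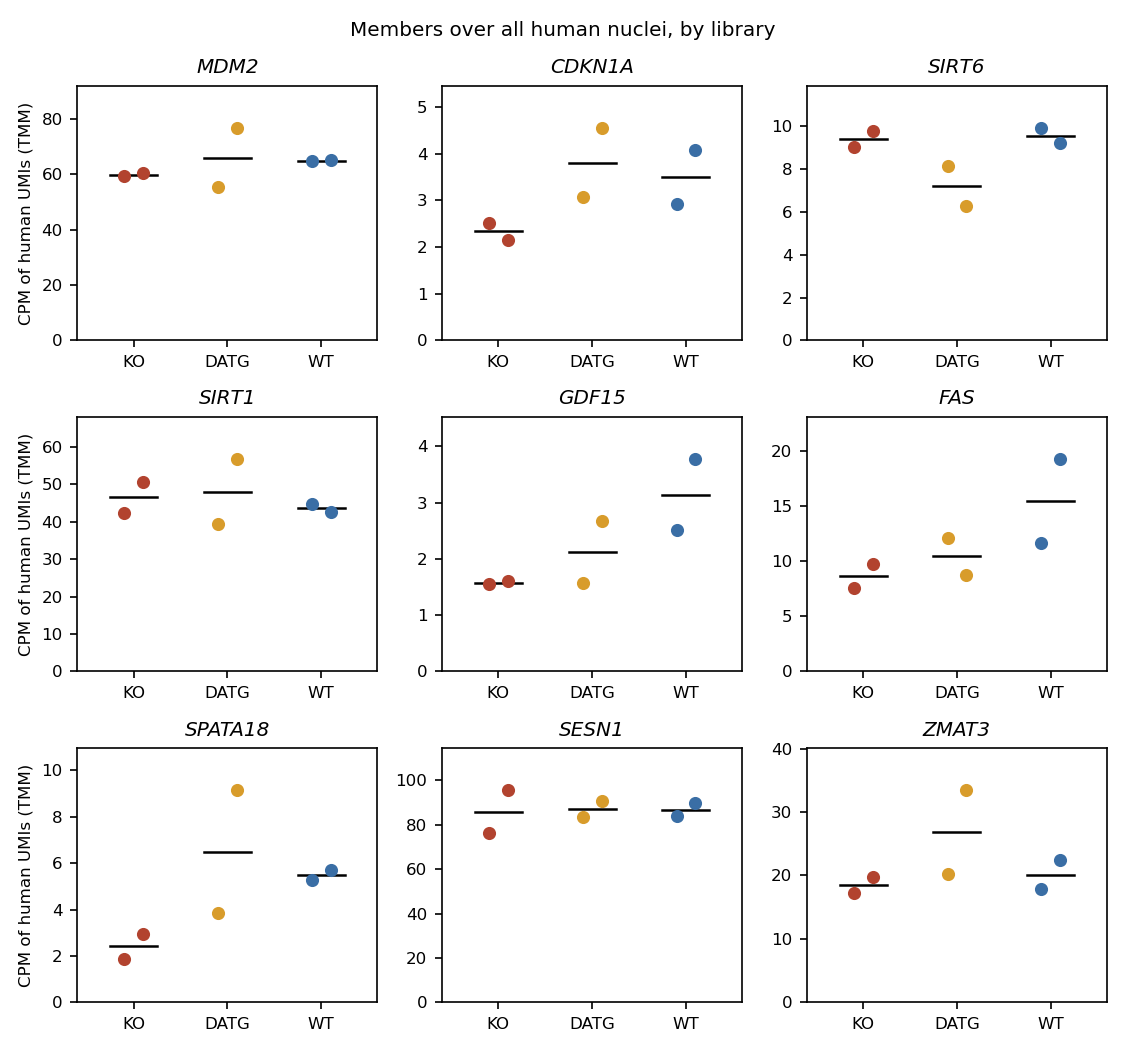
Level of each member in the 6 libraries, in CPM of human UMIs after TMM scaling, with KO, DATG and WT from left to right. Points are libraries and bars are group means. SPATA18 lies at 1.89 and 2.93 CPM in KO, below all other libraries, while SESN1 lies between 76.3 and 95.5 CPM throughout.

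MDM2, the brake on p53 (chr12:68808176-68850686, + strand), had 59.2 and 60.3 CPM in KO libraries, 55.4 and 76.5 CPM in DATG libraries and 64.7 and 65.0 CPM in WT libraries. The replicates of KO and of WT lay close together, and the groups did not overlap, as already counted above. The log2 fold change was -0.12 (SE 0.23, 95% interval -0.67 to 0.44, edgeR adjusted p = 0.999) in KO vs WT and 0.024 (SE 0.23, interval -0.53 to 0.58, edgeR adjusted p = 1.000) in DATG vs WT. Without DATG replicate 2, the library that stood apart, the DATG vs WT value was -0.23. The KO vs WT interval runs from 0.628-fold to 1.35-fold. MDM2 overlaps the carboxypeptidase M gene on the other strand and 3 unnamed clone transcripts, and since the strand setting of the counting is unknown here, reads of these partners cannot be told apart.

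CDKN1A, the cell cycle brake (chr6:36676460-36687339, + strand), was sparse, with 73 to 131 UMIs per library. It had 2.51 and 2.16 CPM in KO libraries, 3.07 and 4.54 CPM in DATG libraries and 2.92 and 4.08 CPM in WT libraries. Both KO libraries lay below both libraries of each other group. In the fit the log2 fold change was -0.58 (SE 0.43, interval -1.64 to 0.48, edgeR adjusted p = 0.999) in KO vs WT and 0.70 (SE 0.44, interval -0.36 to 1.76, edgeR adjusted p = 0.687) in DATG vs KO. Without WT replicate 2 the KO vs WT value was -0.32, and without DATG replicate 2 the DATG vs KO value was 0.41. CDKN1A overlaps the antisense RNA DINOL.

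SESN1, the mTORC1-restraining sestrin (chr6:108986437-109094819, - strand), had 76.3 and 95.5 CPM in KO libraries, 83.6 and 90.7 CPM in DATG libraries and 83.8 and 89.9 CPM in WT libraries. All 3 groups overlapped. Its log2 fold change was -0.016 (SE 0.21, interval -0.53 to 0.49) in KO vs WT and 0.005 (SE 0.21, interval -0.50 to 0.52) in DATG vs WT.

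ZMAT3, the RNA-binding target (chr3:179017223-179072279, - strand), had 17.2 and 19.8 CPM in KO libraries, 20.3 and 33.4 CPM in DATG libraries and 17.8 and 22.4 CPM in WT libraries. The DATG mean was carried by replicate 2, without which the DATG vs WT log2 fold change was 0.006 and the DATG vs KO value 0.15, against 0.70 and 0.84 without DATG replicate 1. The log2 fold change was 0.42 (SE 0.32, edgeR adjusted p = 1.000) in DATG vs WT, -0.12 (SE 0.32, edgeR adjusted p = 0.999) in KO vs WT and 0.54 (SE 0.32, edgeR adjusted p = 0.687) in DATG vs KO.

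SPATA18, the mitochondrial quality control gene (chr4:52051331-52097292, + strand), differed most among the members. It had 1.89 and 2.93 CPM in KO libraries, 3.85 and 9.13 CPM in DATG libraries and 5.27 and 5.69 CPM in WT libraries, on 61 to 183 UMIs per library. KO lay below both other groups, and the DATG libraries lay on either side of WT. Its log2 fold change was -1.18 (SE 0.53, interval -2.48 to 0.11, unadjusted p = 0.0674, edgeR adjusted p = 0.999) in KO vs WT. It was 1.42 (SE 0.54, interval 0.11 to 2.73, unadjusted p = 0.0374, edgeR adjusted p = 0.687) in DATG vs KO, the lone member comparison with an unadjusted p under 0.05, against 5.75% of all genes. Without DATG replicate 1 that difference was 1.90 and passed (edgeR adjusted p = 0.0113), in a fit that rests on 1 DATG library and called 6243 genes in all. Without DATG replicate 2 it was 0.69 (edgeR adjusted p = 0.950). In the 4 KO and WT libraries alone SPATA18 had an unadjusted p of 0.00902 and an edgeR adjusted p of 0.129.

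GDF15, the secreted stress cytokine (chr19:18374731-18389176, + strand), had 1.55 and 1.60 CPM in KO libraries, 1.58 and 2.67 CPM in DATG libraries and 2.51 and 3.77 CPM in WT libraries. Both KO libraries lay below both WT libraries, on 47 to 121 UMIs per library. GDF15's log2 fold change was -0.99 (SE 0.48, interval -2.16 to 0.18, edgeR adjusted p = 0.999) in KO vs WT and -0.57 (SE 0.48, edgeR adjusted p = 1.000) in DATG vs WT. Leaving out 1 library moved the KO vs WT value between -1.26 and -0.67. The DATG vs WT value was -0.99 without DATG replicate 2, -0.27 without DATG replicate 1 and -0.25 without WT replicate 2. The microRNA gene MIR3189 lies within it.

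FAS, the death receptor (chr10:88990582-89015785, + strand), had 7.53 and 9.69 CPM in KO libraries, 12.1 and 8.74 CPM in DATG libraries and 11.6 and 19.2 CPM in WT libraries. Both KO libraries lay below both WT libraries, and the WT libraries were far apart. The log2 fold change was -0.84 (SE 0.38, interval -1.76 to 0.079, edgeR adjusted p = 0.999) in KO vs WT and -0.56 (SE 0.38, interval -1.48 to 0.35, edgeR adjusted p = 1.000) in DATG vs WT. Without WT replicate 2 the KO vs WT value was -0.43 and the DATG vs WT value -0.16, and without WT replicate 1 the DATG vs WT value was -0.88. It was -0.85 without DATG replicate 1 and -0.35 without DATG replicate 2. FAS overlaps ACTA2, the smooth muscle actin gene on the other strand, and reads of the pair cannot be told apart if strand was not used.

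Neither sirtuin passed the test in any comparison. SIRT1 (chr10:67884669-67918390, + strand) had 42.4 and 50.7 CPM in KO libraries, 39.4 and 56.7 CPM in DATG libraries and 44.8 and 42.6 CPM in WT libraries, and all groups overlapped. Its log2 fold change was 0.093 (SE 0.25, interval -0.52 to 0.71) in KO vs WT and 0.14 (SE 0.25, interval -0.48 to 0.75) in DATG vs WT. SIRT6 (chr19:4174109-4182604, - strand), the described protein partner of LNCPRESS1, had 9.05 and 9.81 CPM in KO libraries, 8.15 and 6.30 CPM in DATG libraries and 9.91 and 9.21 CPM in WT libraries. KO and WT overlapped for SIRT6, while both DATG libraries lay below both WT libraries, as 11.9% of all genes tested did. The SIRT6 log2 fold change was -0.020 (SE 0.31, interval -0.77 to 0.73) in KO vs WT and -0.40 (SE 0.31, interval -1.16 to 0.35, edgeR adjusted p = 1.000) in DATG vs WT. Without DATG replicate 2 the DATG vs WT values were -0.24 for SIRT6 and -0.16 for SIRT1, and without DATG replicate 1 they were -0.64 and 0.34. With nuclei of at least 99% human UMIs the SIRT6 value was -0.65, but this limit kept only 442 of 5589 nuclei in DATG replicate 2.

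**Figure D2:**
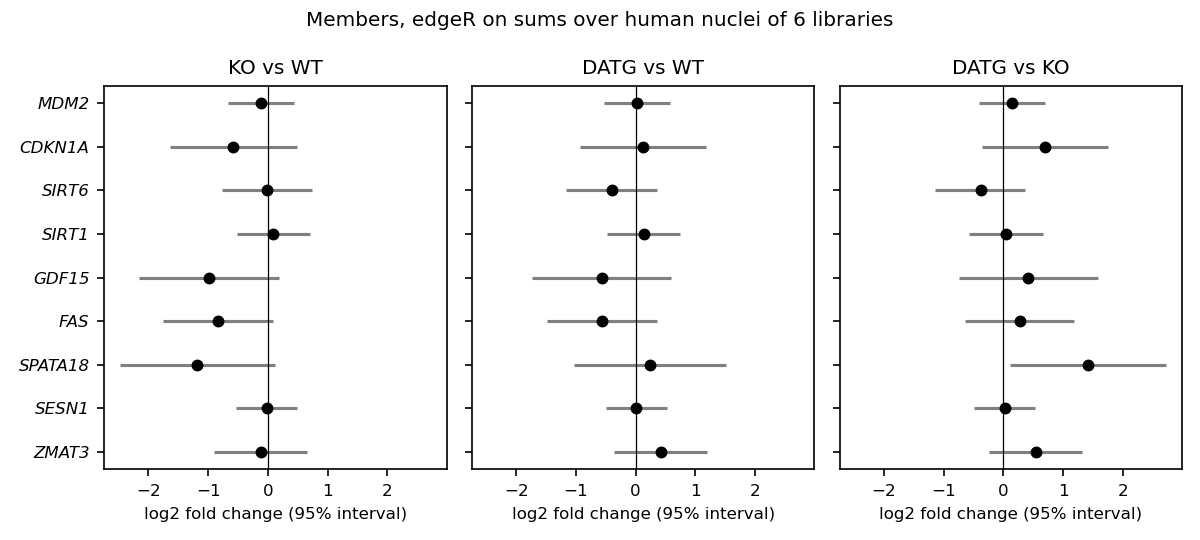
Log2 fold change of each member (points) with its 95% interval (lines) in KO vs WT, DATG vs WT and DATG vs KO, from edgeR on 6 libraries. Every interval but 1 includes 0, the exception being SPATA18 in DATG vs KO at 1.42.

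In DATG vs WT edgeR called 0 genes (0%), while 803 (3.06%) had an unadjusted p under 0.05. DESeq2 called 81 (0.321%) and none was a member. No member had an unadjusted p under 0.05 there by edgeR on 6 libraries, by edgeR on 4 libraries (1.70% of all genes) or by DESeq2 (2.73%). Of the 9 members, 6 lay above 0, with a median log2 fold change of 0.024, beside 52.6% of all genes above 0 and a median of 0.024 over them. In KO vs WT 1 of 9 members lay above 0, with a median of -0.12, beside 51.4% and 0.013 over all genes. In DATG vs KO edgeR called 0 genes (0%), against 1512 with an unadjusted p under 0.05, and DESeq2 called 80 (0.356%), again without a member. In DATG vs KO 8 of 9 members lay above 0, with a median of 0.28, beside 52.1% and 0.026 over all genes. By DESeq2 SPATA18 alone had an unadjusted p under 0.05 (6.30% of all genes had), and by edgeR on 4 libraries no member had (2.96%). There 3 members had both DATG libraries above both KO libraries (CDKN1A, SPATA18 and ZMAT3), as 20.6% of all genes had, and SIRT6 had both below, as 21.2% had. KO vs WT and DATG vs WT share the WT libraries, and DATG vs KO shares libraries with both, so the comparisons are not independent.

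The cell types in these teratomas differed in the members they carried, and the levels below, in unscaled CPM, are a description without a test. Clustering without the members among its genes gave 32 clusters, of which 24 fell into 16 classes named from marker genes and 8, with 20.9% of nuclei, stayed unnamed. Levels are means over libraries with at least 30 nuclei of the class, with the SD. Neighbours in the order of classes were rarely apart: over 15 neighbouring pairs, the means were more than 1 SD apart in 1 pair each for CDKN1A, SESN1 and ZMAT3 and in no pair for the other members. The highest class changed at Leiden resolution 0.5, a coarser clustering, for SIRT1 (to neural progenitor-like), GDF15 (to endothelial-like) and FAS (to smooth muscle or pericyte-like), and with pooled UMIs for MDM2 (to hepatocyte-like). The classes themselves differed at resolution 0.5. No pluripotent class was named there, and the hepatocyte-like cluster had ESRG and HPAT5, leading genes of the pluripotent cluster, among its own. The neural progenitor class there took in a cluster led by HSPA1A. For SIRT1 and GDF15 the change thus compares different sets of nuclei. Fewer nuclei of a type and less RNA per nucleus cannot be told apart in values over whole teratomas.

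**Figure D3:**
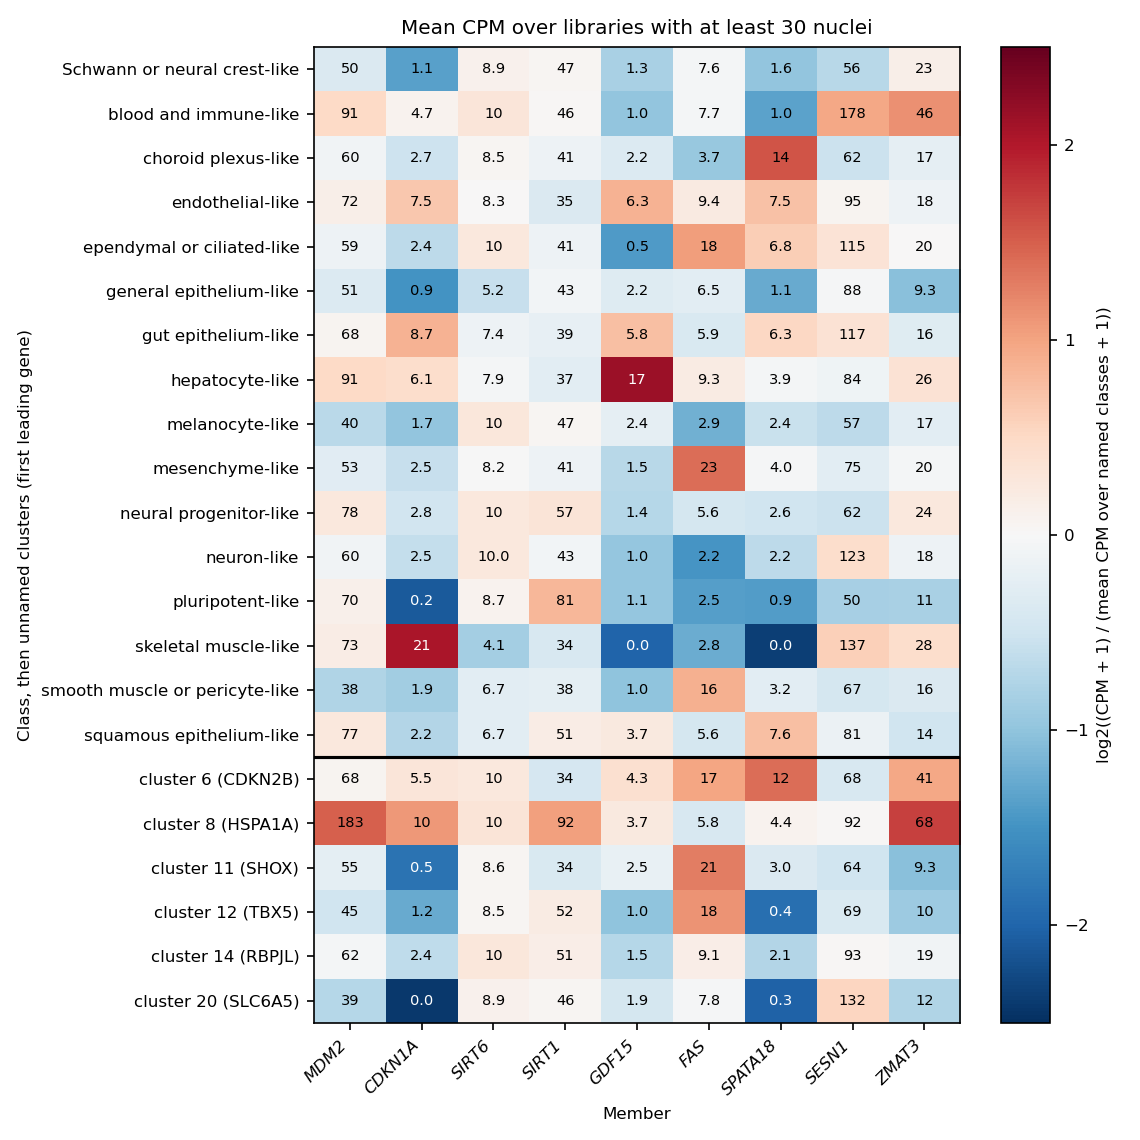
Mean CPM of each member (numbers) in 16 named classes and, under the line, 6 unnamed clusters present in at least 3 libraries, with colours for the log2 ratio to the member's mean over named classes. CDKN1A stands out in skeletal muscle-like nuclei, GDF15 in hepatocyte-like nuclei, FAS in mesenchyme-like nuclei, and MDM2 and ZMAT3 in the cluster led by HSPA1A.

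CDKN1A averaged 20.9 ± 3.96 CPM in skeletal muscle-like nuclei (SD, n = 3 libraries, 17.6 to 25.3 CPM), a cell type in which it is known as a factor of cell cycle exit. The next classes were gut epithelium-like at 8.70 ± 2.04 CPM (n = 5) and endothelial-like at 7.47 ± 3.03 CPM (n = 5). It was lowest in pluripotent-like nuclei at 0.239 ± 0.478 CPM (n = 4), where 1 UMI was counted in all. The skeletal muscle value rests on 5 and 4 UMIs in the KO libraries and 6 UMIs in DATG replicate 1.

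GDF15 was highest in hepatocyte-like nuclei, at 16.7 ± 20.7 CPM (n = 6), with 58.6 CPM in DATG replicate 1 and 3.02 to 11.4 CPM in the others. Endothelial-like nuclei had 6.29 ± 7.87 CPM (n = 5) and gut epithelium-like nuclei 5.75 ± 2.94 CPM (n = 5). In neural classes it was low, with 1.04 ± 0.793 CPM in neuron-like nuclei (n = 6). Hepatocyte-like nuclei held 41 and gut epithelium-like nuclei 49 of its 405 UMIs.

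FAS was highest in mesenchyme-like nuclei at 22.6 ± 11.7 CPM (n = 6), followed by ependymal or ciliated-like nuclei at 17.5 ± 9.29 CPM (n = 5) and smooth muscle or pericyte-like nuclei at 15.6 ± 5.84 CPM (n = 6). It was lowest in neuron-like nuclei at 2.24 ± 1.39 CPM (n = 6). The unnamed clusters led by SHOX and by TBX5, genes of limb mesenchyme, had 20.8 ± 5.77 CPM (n = 5) and 18.5 ± 5.36 CPM (n = 6), the TBX5-led one with 6 of 6 cycling markers.

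SPATA18 was highest in choroid plexus-like nuclei at 14.2 ± 9.52 CPM (n = 6), and the unnamed cluster led by CDKN2B and DKK2 had 12.4 ± 7.03 CPM (n = 6). That cluster also carried 8 of 12 mesenchyme markers. In neuron-like nuclei SPATA18 had 2.22 ± 2.46 CPM (n = 6), and in skeletal muscle-like nuclei it was at 0 in the 3 libraries counted.

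SESN1 was highest in blood and immune-like nuclei at 178 ± 24.2 CPM (n = 4), then in skeletal muscle-like nuclei at 137 ± 33.3 CPM (n = 3) and neuron-like nuclei at 123 ± 19.7 CPM (n = 6). It was lowest in pluripotent-like nuclei at 50.4 ± 12.4 CPM (n = 4). ZMAT3 was also highest in blood and immune-like nuclei, at 45.8 ± 13.8 CPM (n = 4), and its lowest mean was in general epithelium-like nuclei at 9.34 ± 9.84 CPM (n = 4). That mean includes KO replicate 2, at 0 in 35 nuclei, and with UMIs pooled the class had 15.2 CPM, above squamous epithelium-like nuclei at 12 CPM and pluripotent-like nuclei at 12.4 CPM.

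MDM2 varied little among named classes, from 37.9 ± 15.4 CPM in smooth muscle or pericyte-like nuclei (n = 6) to 91.3 ± 41.1 CPM in blood and immune-like nuclei (n = 4), with hepatocyte-like nuclei at 91.3 ± 29.3 CPM (n = 6). Neural progenitor-like nuclei had 77.5 ± 7.15 CPM and mesenchyme-like nuclei 53 ± 3.71 CPM (n = 6 each). SIRT1 was highest in pluripotent-like nuclei at 80.9 ± 26.7 CPM (n = 4), followed by neural progenitor-like nuclei at 56.8 ± 7.22 CPM (n = 6), and lowest in skeletal muscle-like nuclei at 34.1 ± 20.3 CPM (n = 3). SIRT6 ran from 4.09 ± 3.95 CPM in skeletal muscle-like nuclei (n = 3) to 10.4 ± 8.79 CPM in blood and immune-like nuclei (n = 4), where 9 UMIs were counted.

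The genes most like each member across the 16 classes were found among 10951 candidates with at least 10 CPM on average, by Pearson's r of log2(CPM + 1). The top genes were TMEM94 for MDM2 (r = 0.847), MPC1 for CDKN1A (0.855), CD36 for SESN1 (0.859), RAB5IF for ZMAT3 (0.889), MTR for GDF15 (0.878), IL6ST for FAS (0.862), DYNC2I1 for SPATA18 (0.833), ZNF589 for SIRT1 (0.884) and FAM219B for SIRT6 (0.879). For SPATA18 the next was DNAH12 (r = 0.780), like DYNC2I1 a gene of cilia, and for FAS the next were S1PR3 and BMP1 (0.845 and 0.817). Between members the strongest were CDKN1A with SIRT1 (r = -0.684) and CDKN1A with SESN1 (0.646). The classes share libraries and depth, and each top gene is the highest of many.

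The highest level of MDM2 and of ZMAT3 was in none of the named classes but in an unnamed cluster of 2147 nuclei led by HSPA1A and HSPA1B, the inducible heat shock genes. This cluster was singled out after its values were seen and gets no test. MDM2 had 218 and 272 CPM there in KO libraries, 280 and 96.5 CPM in DATG libraries and 105 and 126 CPM in WT libraries. In all other nuclei it had 60.7 and 57.2 CPM in KO libraries, 53.6 and 67.7 CPM in DATG libraries and 68.0 and 64.6 CPM in WT libraries. MDM2 was thus higher in the cluster in 6 of 6 libraries, 2.80-fold when UMIs were pooled. The share of all genes higher there in 6 of 6 libraries was not counted. With pooled UMIs 47.0% of 21047 genes with at least 1 CPM were higher in the cluster.

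ZMAT3 had 45.7 and 96.1 CPM in the cluster in KO libraries, 118 and 61.4 CPM in DATG libraries and 52.7 and 35.5 CPM in WT libraries, and was also higher in 6 of 6 libraries, 2.76-fold pooled. SIRT1 was higher in 6 of 6 libraries, 1.82-fold pooled (82.2 CPM in the cluster against 45.1 CPM outside). CDKN1A was higher in 5 of 6 libraries, 2.75-fold pooled, on 21 UMIs. SESN1 had 81.8 CPM in the cluster against 87.1 CPM outside, and SPATA18 had 3.99 CPM against 4.46 CPM. FAS stood lower at 5.59 CPM against 11.9 CPM, with 14 UMIs in the cluster.

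Other p53 genes were also high in this cluster. Of 42 further p53 targets listed for arrest, repair, metabolism and death, 13 (31.0%) were at least 2-fold above the other nuclei, against 11.1% of 21047 genes with at least 1 CPM, and their median log2 ratio was 0.64 against -0.061. Both shares are descriptions of pooled UMIs, with 1 CPM added to each level. The genes named next were chosen after their values were seen. They included GADD45A, a stress sensor of the cell cycle (25.1 CPM in the cluster, 7.23 CPM outside), BTG2, an antiproliferative gene (26.7 and 10.8 CPM), CCNG1, cyclin G1 (53.9 and 23.6 CPM), and BBC3 and PMAIP1, which trigger mitochondrial cell death. Of 19 p53 regulators 4 were at least 2-fold higher (21.1%: USP7, WRAP53, DAXX and PPM1D).

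**Figure D4:**
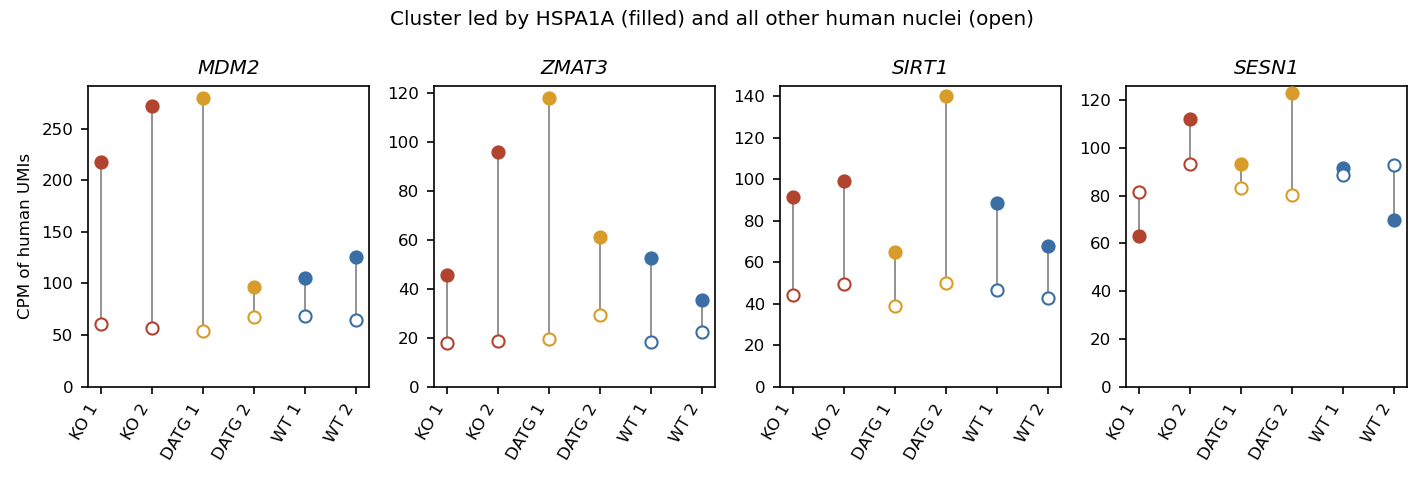
CPM of MDM2, ZMAT3, SIRT1 and SESN1 in each library, in the cluster led by HSPA1A (filled) and in all other human nuclei (open), with KO, DATG and WT libraries from left to right. MDM2, ZMAT3 and SIRT1 are higher in the cluster in 6 of 6 libraries, while SESN1 lies on either side. The share of all genes higher in 6 of 6 libraries was not counted.

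The cluster was shallow and rich in mitochondrial RNA beside the other nuclei. Its nuclei had a median of 922 UMIs, and by library 725 to 1150.5 UMIs, against 2510 to 4197 in the other nuclei. Mitochondrially encoded genes made up 0.393% and 0.676% of its UMIs in KO, 1.60% and 0.741% in DATG and 1.12% and 0.182% in WT, above the other nuclei of the same library each time. HSPA1A itself ranged from 73.1 CPM in DATG replicate 1 to 1203 CPM in WT replicate 2, while MDM2 was highest in DATG replicate 1. The cluster carried 9 of 12 neural progenitor markers, and named neural progenitor-like nuclei had an MDM2 level of 77.5 CPM. It made up 3.84% and 3.69% of nuclei in KO, 2.32% and 1.81% in DATG and 7.52% and 7.08% in WT. It supplied 3.81% of all MDM2 UMIs, and the part of depth and RNA quality in its levels was not tested.

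Within cell classes, no member passed in any of 87 tests, over 4 classes with at least 100 nuclei in every library (mesenchyme, neuron, neural progenitor and choroid plexus). In these classes 0 genes (0%) were called by edgeR in every comparison, of 13296 to 18146 tested. The smallest adjusted p of a member was 0.646, for FAS in mesenchyme-like nuclei. GDF15 was too sparse to test in any of the 4 classes. Of the 8 other members, 2 had groups apart in opposite directions in different classes in KO vs WT (FAS and SPATA18, as 11.9% of 17268 genes had). In DATG vs WT 2 had (SIRT6 and ZMAT3, 6.66% of genes), and in DATG vs KO 0 had (7.95%). Some of these gaps were very small, as for FAS in neural progenitor-like nuclei, where the nearest KO and WT libraries had 4.82 and 4.77 CPM.

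FAS in mesenchyme-like nuclei had 9.42 and 21.4 CPM in KO libraries, 18.6 and 15.4 CPM in DATG libraries and 28.5 and 42.2 CPM in WT libraries. Both KO and both DATG libraries lay below both WT libraries. The log2 fold change was -1.19 (SE 0.44, interval -2.24 to -0.13, unadjusted p = 0.0326, edgeR adjusted p = 0.646) in KO vs WT and -1.05 (SE 0.44, interval -2.10 to -0.006, unadjusted p = 0.0490, edgeR adjusted p = 0.997) in DATG vs WT.

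The make-up of this class differed between groups, as shown by clusters that were singled out after their values were seen and get no test. The cluster led by ADAMTS14, GLP2R and C7 held 0.749% and 7.29% of mesenchyme-like nuclei in KO, 10.7% and 17.2% in DATG and 55.4% and 65.7% in WT. The cluster led by EPYC, TBX5 and IGF1 held 85.3% and 58.9% in KO, 80.8% and 9.87% in DATG and 28% and 12.6% in WT, and in DATG replicate 2 the cluster with PKHD1L1 among its leading genes held 44.4%.

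FAS was high in the ADAMTS14-led cluster in all groups, with 35.9 CPM in the KO library that had enough nuclei, 29.3 and 31.0 CPM in DATG libraries and 35.2 and 51.4 CPM in WT libraries. In the EPYC-led cluster it had 9.86 and 23.4 CPM in KO libraries, 18.3 and 7.35 CPM in DATG libraries and 20.6 and 13.5 CPM in WT libraries. The KO and WT groups overlapped within either cluster. Outside the ADAMTS14-led cluster, FAS over all human nuclei was 7.99 and 9.23 CPM in KO libraries, 11.6 and 6.89 CPM in DATG libraries and 9.26 and 10.7 CPM in WT libraries. Both KO libraries still lay below both WT libraries there, by a narrow margin, and the log2 ratio of KO over WT means was -0.21, against the fitted -0.84 over all nuclei. That cluster supplied 0.412% and 3.98% of FAS UMIs in KO, 6.17% and 14.3% in DATG and 33.2% and 57.7% in WT.

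**Figure D5:**
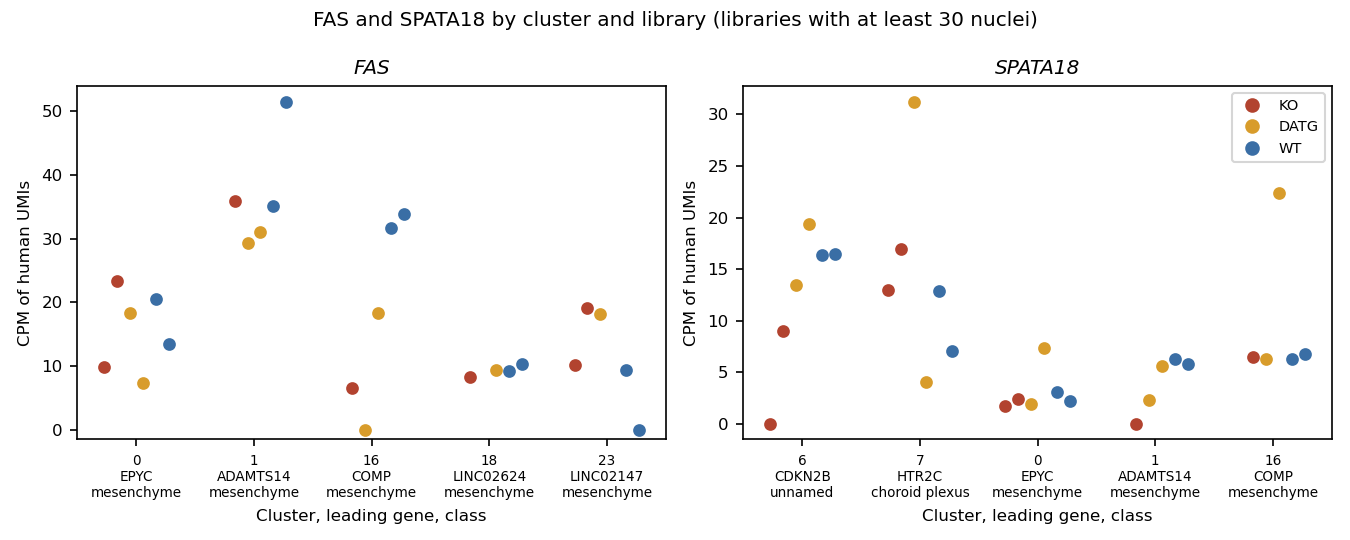
CPM of FAS (left) and SPATA18 (right) by cluster, each point a library with at least 30 nuclei, with KO, DATG and WT from left to right within a cluster. FAS lies at 29.3 to 51.4 CPM in the ADAMTS14-led cluster in every group, and SPATA18 in the CDKN2B-led cluster runs from 0 in KO replicate 1 to 19.4 CPM in DATG replicate 2.

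The CDKN2B-led cluster, also singled out after its values were seen, was largest in DATG replicate 2, where it made up 17.7% of nuclei and supplied 57.8% of SPATA18 UMIs. In the other libraries it made up 0.347% and 5.88% of nuclei in KO, 3.02% in DATG replicate 1 and 2.63% and 5.53% in WT. Outside it SPATA18 had 2.02 and 2.41 CPM in KO libraries, 3.32 and 4.51 CPM in DATG libraries and 5.23 and 4.87 CPM in WT libraries. KO still lay below WT there, with a log2 ratio of the means of -1.19, and DATG now lay between them, with a ratio of -0.37 to WT and 0.82 to KO.

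For GDF15, leaving out the gut epithelium-like cluster gave 1.65 and 1.55 CPM in KO libraries, 1.56 and 2.19 CPM in DATG libraries and 2.34 and 3.35 CPM in WT libraries, so KO still lay below WT. That cluster held 0.108% and 0.705% of nuclei in KO, 0.693% and 13.6% in DATG and 5.35% and 7.44% in WT. For CDKN1A the same step gave 2.67 and 2.08 CPM in KO libraries, 2.98 and 3.74 CPM in DATG libraries and 2.76 and 3.84 CPM in WT libraries.

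When 7 classes with at least 30 nuclei in every library were weighted alike in all libraries, 7 of 9 members had both KO libraries below both WT libraries and none had both above. These were the 5 counted over all nuclei (MDM2, CDKN1A, GDF15, FAS and SPATA18) with SIRT6 and ZMAT3. On this scale 18.1% of all genes tested had KO below WT and 17.6% above. In DATG vs WT 3 members lay below (SIRT6, FAS and SESN1; 17.2% of all genes) and 0 above (9.68%), and in DATG vs KO 3 lay above (CDKN1A, SPATA18 and ZMAT3; 13.8%) and 0 below (21.7%). GDF15 became 1.77 and 1.75 CPM in KO, 3.06 and 1.28 CPM in DATG and 1.78 and 2.23 CPM in WT, a log2 ratio of KO over WT of -0.19, beside the fitted -0.99 over all nuclei. SPATA18 became 2.83 and 3.2 CPM in KO, 4.44 and 6.15 CPM in DATG and 5.12 and 3.71 CPM in WT, a ratio of -0.55 beside the fitted -1.18. CDKN1A became 2.13 and 1.55 CPM in KO, 3.39 and 2.44 CPM in DATG and 3.51 and 2.94 CPM in WT, a ratio of -0.81 beside the fitted -0.58. MDM2 became 60.1 and 58.6 CPM in KO, 54.6 and 63.2 CPM in DATG and 68.5 and 60.4 CPM in WT, a ratio of -0.12 as in the fit. The ratio was -0.19 for SIRT6 and -0.32 for ZMAT3. FAS had a ratio of -0.85 beside the fitted -0.84 on this scale, on which the clusters inside a class are not weighted. The scale also leaves out the other named classes and the unnamed clusters, the latter with 20.9% of nuclei. Among the parts left out were the gut epithelium-like cluster, with 12.1% of all GDF15 UMIs, and the CDKN2B-led cluster, with 24.5% of all SPATA18 UMIs. The ratios and the fitted values thus cover different sets of nuclei, and the ratios were not tested.

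In the wider p53 pathway edgeR on 6 libraries called no gene. Of 19 p53 regulators, 0 rose and 0 fell in KO vs WT or DATG vs WT by edgeR, with medians of -0.093 and 0.092. CDKN2A, whose ARF product blocks MDM2, had 0.620 and 1.60 CPM in KO, 2.78 and 9.13 CPM in DATG and 2.35 and 4.64 CPM in WT (log2 fold change -1.65 in KO vs WT, edgeR adjusted p = 0.999). TP63 and TP73, transcription factors of the same family, were also uncalled, at 0.015 and 0.031 in KO vs WT.

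Of the 42 further p53 targets, 0 were called, with 17 above 0 and a median of -0.084 in KO vs WT, 26 above 0 and a median of 0.072 in DATG vs WT, and 31 above 0 and a median of 0.13 in DATG vs KO. Among the 26 in arrest, repair and metabolism the lowest unadjusted p in KO vs WT was that of PRDM1, a transcription repressor. PRDM1 had 25.1 and 15.5 CPM in KO, 21.9 and 129 CPM in DATG and 71.6 and 71.7 CPM in WT, with a log2 fold change of -1.82 (SE 0.77, edgeR adjusted p = 0.987). On the 4 KO and WT libraries alone PRDM1 passed (-1.84, edgeR adjusted p = 0.0213). Gut epithelium-like nuclei made up 0.108% and 0.705% of nuclei in KO, 0.693% and 13.6% in DATG and 5.35% and 7.44% in WT. The part of cell make-up in the PRDM1 values was not tested. PLK2, a polo-like kinase, had 13.4 and 18.1 CPM in KO, 24.4 and 35.6 CPM in DATG and 12.6 and 19.7 CPM in WT (0.89 in DATG vs WT, unadjusted p = 0.0436, edgeR adjusted p = 1.000). Among the 16 in cell death DRAM1, an autophagy gene, had 6.97 and 12.3 CPM in KO, 10.9 and 17.6 CPM in DATG and 15.6 and 26.4 CPM in WT (-1.13 in KO vs WT, unadjusted p = 0.0460, edgeR adjusted p = 0.970).

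Downstream of FAS, 8 of 9 listed death receptor genes were tested and 0 were called, with 3 above 0, 5 below 0 and a median of -0.20 in KO vs WT. The pair named here had the smallest unadjusted p of the list in that comparison. CASP8, the initiator caspase, had 8.05 and 9.51 CPM in KO, 10.00 and 19.6 CPM in DATG and 12.6 and 16.7 CPM in WT (-0.74 in KO vs WT, edgeR adjusted p = 0.999). CASP10, its close relative, had 1.55 and 4.12 CPM in KO, 2.33 and 9.76 CPM in DATG and 7.90 and 9.40 CPM in WT (-1.61 in KO vs WT, edgeR adjusted p = 0.999).

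The CDK inhibitors related to CDKN1A all lay above 0 in DATG vs WT, 6 of 6, with a median of 0.75 beside 0.024 over all genes, and 0 were called. DATG and WT libraries overlapped for CDKN2A, CDKN2D (11.6 and 4.71 against 2.98 and 5.41) and CDKN1C (69.1 and 81.0 against 56.4 and 82.5 CPM). They lay apart for CDKN1B and for CDKN2C (2.27 and 1.82 against 0.752 and 1.28 CPM). The part of cell make-up in these values was not tested. CDKN1B had 17.0 and 14.3 CPM in KO, 21.6 and 25.3 CPM in DATG and 12.6 and 15.6 CPM in WT (0.73 in DATG vs WT, SE 0.27, unadjusted p = 0.0323, edgeR adjusted p = 1.000). Of 15 cycling genes 0 were called over all nuclei and the median was -0.007 in KO vs WT and -0.11 in DATG vs WT. In mesenchyme-like nuclei DESeq2 called 1 of them, RRM2, a ribonucleotide reductase subunit (-1.93 in KO vs WT, DESeq2 adjusted p = 0.0232), which edgeR did not. In the sestrin and mTORC1 list 12 of 14 genes lay below 0 in KO vs WT (median -0.13) and 0 were called. SESN2 had 7.59 and 8.45 CPM in KO, 6.95 and 13 CPM in DATG and 10.9 and 12.8 CPM in WT.

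The other 5 sirtuins, SIRT2 to SIRT5 and SIRT7, were not called either, with medians of -0.039 in KO vs WT and -0.076 in DATG vs WT. SIRT5 had the lowest unadjusted p in KO vs WT (22.2 and 21.0 CPM in KO, 25.2 and 39.5 CPM in DATG, 28.4 and 27.0 CPM in WT, log2 fold change -0.36, edgeR adjusted p = 0.999). Among 13 genes that make or use NAD, the cofactor of sirtuins, NMNAT2, an NAD-synthesising enzyme of neurons, had 97.3 and 92.7 CPM in KO, 75.0 and 18.9 CPM in DATG and 38.3 and 39.1 CPM in WT (1.30 in KO vs WT, edgeR adjusted p = 0.999). It passed on the 4 KO and WT libraries alone (1.28, edgeR adjusted p = 0.0232). The share of neuron-like nuclei was 20.4% and 17.5% in KO, 18.8% and 5.17% in DATG and 5.90% and 8.32% in WT, and the part of this share in the NMNAT2 values was not tested. Of 11 zinc-dependent histone deacetylases 0 were called, with medians of 0.022 and 0.024.

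Of 12 stem cell genes linked to SIRT6, 9 lay above 0 in KO vs WT (median 0.24) and 0 were called. SOX2, a pluripotency and neural factor, had 60.7 and 47.6 CPM in KO, 44.8 and 34.6 CPM in DATG and 35.4 and 34.1 CPM in WT (0.64, SE 0.24, unadjusted p = 0.0372, edgeR adjusted p = 0.941). SOX2 is also a marker of neural progenitor-like nuclei, whose share of nuclei was 21.3% and 18.7% in KO, 7.79% and 5.17% in DATG and 12% and 7.91% in WT, and its part in the SOX2 values was not tested. POU5F1 had 3.35 and 0.652 CPM in KO, 0.418 and 20.4 CPM in DATG and 1.63 and 1.74 CPM in WT. Pluripotent-like nuclei numbered 153 in DATG replicate 2 and 160 in KO replicate 1.

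Stress lists other than p53 were also without calls by edgeR. In the integrated stress response list, which shares GDF15 as a known output, 4 of 14 genes lay above 0 in KO vs WT and 11 of 14 in DATG vs WT. PHGDH, a serine synthesis enzyme, had 30.5 and 22.1 CPM in KO, 42.1 and 32.1 CPM in DATG and 55.4 and 42.0 CPM in WT (-0.89 in KO vs WT, unadjusted p = 0.0202, edgeR adjusted p = 0.924). The 11 immediate early and heat shock genes had medians of 0.39 in KO vs WT and -0.34 in DATG vs WT. All 13 mitochondrially encoded genes had an unadjusted p under 0.05 in DATG vs WT, with a median of 2.56, and DESeq2 called 9 of them. MT-ATP6 had 134 and 106 CPM in KO, 486 and 604 CPM in DATG and 119 and 65.7 CPM in WT, so that the DATG libraries differ from all others in this measure, whose part in the DATG values was not tested.

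Free RNA was gauged in mouse nuclei of the same libraries, which should hold no human transcripts. Mouse nuclei were picked by the same 90% limit on species share, so their human RNA was capped in advance. Barcodes with RNA of both species, 513 to 3649 per library, were left out. The background may thus be higher than the values given here. In 1389 mouse nuclei 26 UMIs of human MDM2 were counted, 18.7 per 1000 nuclei, against 230 per 1000 human nuclei. SESN1 had 18.7 against 318 per 1000, SIRT1 17.3 against 167, ZMAT3 6.48 against 76.8 and FAS 4.32 against 43.0. The sparse members had 1.44 (SPATA18), 1.44 (SIRT6), 2.16 (GDF15) and 0 (CDKN1A) per 1000 mouse nuclei, against 16.3, 32.9, 8.23 and 11.4 per 1000 human nuclei. For GDF15 the background was thus nearest to the level in human nuclei, on 3 UMIs.

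The mouse orthologues in the host nuclei of the same tumours were tested as a set of cells that carry no edited gene. Of 9 orthologues 6 had enough UMIs and 0 were called in any comparison. There edgeR called 0 (0%), 3 (0.0336%) and 0 (0%) of 8930 mouse genes in KO vs WT, DATG vs WT and DATG vs KO. Sesn1 had 83.3 and 81.2 CPM in KO hosts, 121 and 150 CPM in DATG hosts and 150 and 105 CPM in WT hosts, and its log2 fold change of 0.77 in DATG vs KO had the smallest adjusted p (edgeR adjusted p = 0.436). Mdm2 had 87.3 and 114 CPM in KO hosts, 81.8 and 91.8 CPM in DATG hosts and 72.2 and 77.0 CPM in WT hosts (0.48 in KO vs WT, edgeR adjusted p = 0.967). Cdkn1a had 37.7 and 52.2 CPM in KO hosts, 42.3 and 33.1 CPM in DATG hosts and 28.9 and 29.9 CPM in WT hosts (0.67 in KO vs WT, edgeR adjusted p = 0.967). Spata18 had 0 UMIs in host nuclei, and Sirt6 and Gdf15 were too sparse to test.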

How the data were processed

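Single-nucleus RNA was counted in 6 teratoma libraries. The authors deposited raw UMI counts per feature and barcode, made with Cell Ranger 8.0.1 on GRCh38 and GRCm38 per the submitters' processing notes, while the file headers name Cell Ranger 8.0.0 and the mouse features carry a GRCm39 prefix. No source used here gives intron or strand settings.

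Barcodes with at least 500 UMIs, 300 genes and 90% human UMIs were kept as human nuclei, and doublets were called against simulated doublets and removed. The share removed was set in advance at 0.8% per 1000 barcodes. It came to 5.20% to 10.8% per library and is not a measured doublet rate. Clusters came from 2000 variable genes without the members, 30 components and Leiden resolution 1 (leidenalg 0.10.2). A cluster was named when at least 3 markers and 40% of a list were 2-fold raised, subject to depth and leading genes. Counts were summed per library and tested with edgeR 4.0.16 (robust quasi-likelihood, TMM, R 4.3.3) on all 6 libraries, with Benjamini-Hochberg adjustment over all genes, and DESeq2 1.42.0 as an alternative. The scripts were tested on simulated data. Other alternatives were RLE scaling, no filter on low counts, the libraries of the 2 groups alone, each library left out, a replicate block, doublets kept, and other depth, mitochondrial and species limits. Members, lists and tests were chosen with earlier results of these data known. All 9 members were named, and from each list up to 3 genes with the smallest unadjusted p per comparison with WT. Gene coordinates are GENCODE 29 on GRCh38, and promoter windows are RefSeq on GRCh38.p14.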

Additional observations from a re-analysis of the deposited data

Results flagged for a closer look

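In 5 cases the libraries of 2 groups did not overlap in 2 cell classes and lay in opposite directions. They came from 2 of 8 members tested in at least 2 classes in KO vs WT, as 11.9% of 17268 genes had, and 2 of 8 in DATG vs WT, as 6.66% had. In DATG vs KO it was 0 of 8, against 7.95% of genes. The differences between classes were not tested, and none of the effects passed within its class. Some groups lay barely apart. The nearest libraries were 4.82 CPM (KO) and 4.77 CPM (WT) for FAS in neural progenitor-like nuclei. They were 8.78 CPM (DATG) and 8.82 CPM (WT) for SIRT6 in mesenchyme-like nuclei. SPATA18 in choroid plexus-like nuclei had 12.7 CPM in both nearest libraries, and its KO values in mesenchyme-like nuclei rest on 6 and 8 UMIs. For FAS in KO vs WT the log2 fold change was 0.59 in neural progenitor-like nuclei and -1.19 in mesenchyme-like nuclei, a difference of 1.78. For SPATA18 in KO vs WT it was 0.60 in choroid plexus-like and -1.63 in mesenchyme-like nuclei, a difference of 2.23. For SIRT6 in DATG vs WT it was 0.27 in choroid plexus-like nuclei, against -0.12 in mesenchyme-like and -0.80 in neural progenitor-like nuclei, differences of 0.39 and 1.07. For ZMAT3 in DATG vs WT it was 0.45 in neural progenitor-like and -0.32 in choroid plexus-like nuclei, a difference of 0.77.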

How the results depend on the processing

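Over 405 alternative values of the 27 member comparisons, 383 kept their direction and side of the threshold, 21 changed sign and 1 newly passed, and 15 of 27 comparisons kept their sign throughout. With doublets kept, SESN1 in KO vs WT was 0.003. In DATG vs WT, SESN1 was -0.013 with no filter on low counts and -0.009 at a human share of at least 99%. That human share left 442 of 5589 nuclei in DATG replicate 2. Leaving out 1 library at a time moved KO vs WT between -0.084 and 0.040 for SIRT6, -0.047 and 0.22 for SIRT1, -0.19 and 0.14 for SESN1, and -0.28 and 0.055 for ZMAT3. It moved DATG vs WT between -0.23 and 0.20 for MDM2, -0.19 and 0.38 for CDKN1A, -0.16 and 0.34 for SIRT1, -0.52 and 0.70 for SPATA18, and -0.061 and 0.054 for SESN1. It moved DATG vs KO between -0.093 and 0.34 for MDM2, -0.23 and 0.27 for SIRT1, -0.13 and 0.19 for SESN1, and 0.69 and 1.90 for SPATA18.

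Leaving out 1 library gave 0 to 1 called members in DATG vs KO, and 0 to 2 within classes. Both calls within classes were in mesenchyme-like nuclei in DATG vs KO without DATG replicate 1 (ZMAT3 1.33, edgeR adjusted p = 0.0485; SPATA18 2.40, edgeR adjusted p = 0.0264). Called list genes ran from 0 to 2 in KO vs WT, 0 to 17 in DATG vs WT, 0 to 32 in DATG vs KO and 0 to 44 within classes. DESeq2 called 9, 9 and 19 list genes in DATG vs WT, DATG vs KO and within classes, and the 4 KO and WT libraries alone gave 2. Of the 19, which were all in mesenchyme-like nuclei, those not mitochondrially encoded were RRM2 (-1.93, DESeq2 adjusted p = 0.0232) and SLC7A11 (1.47, DESeq2 adjusted p = 0.0375) in KO vs WT and PTCHD4 (3.09, DESeq2 adjusted p = 0.0368) in DATG vs KO. Over all genes, edgeR called 710, 2102 and 6243 in KO vs WT, DATG vs WT and DATG vs KO without DATG replicate 1, and 665, 87 and 3 without DATG replicate 2. In those fits a lone DATG library is assumed to vary like the other groups. The cause was not tested.

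Same-numbered libraries correlated in their deviations at 0.346 (KO and DATG), 0.111 (KO and WT) and -0.14 (DATG and WT). As each group has only 2 libraries, whose deviations mirror each other, these values cannot decide whether the numbers pair the libraries. With the replicate block 0 members were called in every comparison. The class with the highest level was the same for 8 of 9 members when UMIs were pooled and for 6 of 9 at Leiden resolution 0.5, where SIRT1, GDF15 and FAS changed. No pluripotent class was named at that resolution, so SIRT1 could not keep its highest class there. The lowest class was not compared in this way. With 2 libraries per group and 405 to 801 UMIs in all, GDF15, CDKN1A and SPATA18 have the widest intervals.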
